A study of Mus musculus with 2 samples.

Results

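A set of 10 genes of the circadian clock and its direct output was read in mouse liver: the period genes Per1, Per2 and Per3, the cryptochrome genes Cry1 and Cry2, the nuclear receptor genes Nr1d1 and Nr1d2, the transcription factor genes Dbp and Tef, and Ciart. They were taken by gene symbol from the 33696 genes of the count matrices, and each of the 10 symbols matched 1 row. The data were single-cell RNA sequencing of liver tissue from mice labelled SLC22A18-/-, a label for loss of both copies of the imprinted transporter gene Slc22a18, and from mice labelled SLC22A18+/+, the wild type, with 1 library per genotype, each made from 1 sample of liver tissue with a droplet kit that tags the 3' end of transcripts (Chromium Single cell 3' v3). How the allele was made, which part was deleted, the strain, age, sex and number of mice, and the time of day and feeding state at collection are not stated by the labels and protocols. With no replicate there was no test, and each interval below covers counting error only, so genotype, animal, hour of collection and library preparation cannot be told apart.

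In the clock, the proteins CLOCK (or NPAS2) and BMAL1, the product of Arntl, bind E-box sequences and switch on the Per, Cry, Nr1d1, Nr1d2, Dbp, Tef and Ciart genes. PER and CRY proteins then block that pair, while the proteins of Nr1d1 and Nr1d2 repress Arntl, so that in mouse liver Arntl and Npas2 peak in antiphase to Nr1d1 and Dbp. Transcripts of Nr1d1, Nr1d2, Dbp, Tef, Per3 and Ciart rise by day, those of Per1, Per2 and Cry2 around dusk, and those of Cry1 late at night. A shift in phase between livers therefore moves these groups by unequal amounts, with Arntl and Npas2 opposite to the daytime group.

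The regulatory letters behind these phases were looked up in the 300 bases around each start site (250 before, 50 after; RefSeq, GRCm38.p6), which the table held for 9 of the 10 genes in 11 windows; Per2 had no entry. An E-box (CACGTG) was in windows of Ciart, Per1, Cry1 and Tef, an E-box variant (CACGTT, written AACGTG on the other strand) in those of Cry1, Cry2 and Nr1d1, and a D-box (TTANGTAA), the letters read by the proteins of Dbp and Tef, in that of Per3. Of all 32851 windows in the table, 7.15% held the E-box, 4.68% the variant and 2.32% the D-box. An element read by ROR and REV-ERB proteins (ANTAGGTCA, in 0.661% of windows; ANTGGGTCA, in 0.791%) was in 0 windows of the 10 genes and in 1 window each of Arntl and Nfil3. A cyclic AMP element (TGACGTCA, 1.79%) was in 0 of the 11 windows. Both strands were searched, no match overlapped another, and a match is a description of letters only. The windows below, 5' to 3' on the strand of the gene, were chosen to show the E-box, its variant, the D-box and the ROR element in the genes compared below, with the matches in capitals.
Ciart (chr3:95882179-95882478, minus strand): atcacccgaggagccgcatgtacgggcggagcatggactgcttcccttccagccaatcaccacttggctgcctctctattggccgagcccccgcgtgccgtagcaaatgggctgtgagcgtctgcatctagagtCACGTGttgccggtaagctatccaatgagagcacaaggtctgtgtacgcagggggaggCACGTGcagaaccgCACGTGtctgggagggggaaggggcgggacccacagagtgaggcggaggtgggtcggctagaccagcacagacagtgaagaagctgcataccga
Per1 (chr11:69098699-69098998, plus strand): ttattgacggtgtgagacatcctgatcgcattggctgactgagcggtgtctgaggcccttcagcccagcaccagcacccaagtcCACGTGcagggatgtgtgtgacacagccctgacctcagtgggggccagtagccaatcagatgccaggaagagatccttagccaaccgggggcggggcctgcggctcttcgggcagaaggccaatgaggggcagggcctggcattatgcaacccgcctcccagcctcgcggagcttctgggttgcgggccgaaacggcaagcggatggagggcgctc
Cry1 (chr10:85185005-85185304, minus strand): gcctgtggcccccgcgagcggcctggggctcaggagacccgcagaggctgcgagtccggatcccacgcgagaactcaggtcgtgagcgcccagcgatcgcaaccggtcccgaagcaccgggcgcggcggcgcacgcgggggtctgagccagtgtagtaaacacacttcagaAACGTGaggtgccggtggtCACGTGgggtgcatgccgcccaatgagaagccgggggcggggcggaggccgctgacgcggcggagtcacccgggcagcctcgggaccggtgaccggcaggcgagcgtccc
Nr1d1 (chr11:98775328-98775627, minus strand): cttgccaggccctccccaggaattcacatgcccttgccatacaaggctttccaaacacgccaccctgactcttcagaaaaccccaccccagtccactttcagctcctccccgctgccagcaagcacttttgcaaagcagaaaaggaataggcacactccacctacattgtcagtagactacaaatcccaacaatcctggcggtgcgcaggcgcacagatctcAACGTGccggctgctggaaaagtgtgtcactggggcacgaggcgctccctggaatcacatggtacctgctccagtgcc
Per3 (chr4:151044616-151044915, minus strand): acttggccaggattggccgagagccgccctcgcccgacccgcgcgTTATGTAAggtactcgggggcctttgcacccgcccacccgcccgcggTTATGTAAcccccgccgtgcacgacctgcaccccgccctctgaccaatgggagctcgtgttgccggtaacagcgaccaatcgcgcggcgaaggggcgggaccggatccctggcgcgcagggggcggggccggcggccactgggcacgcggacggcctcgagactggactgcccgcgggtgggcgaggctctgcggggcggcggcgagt
Arntl (chr7:113207261-113207560, plus strand): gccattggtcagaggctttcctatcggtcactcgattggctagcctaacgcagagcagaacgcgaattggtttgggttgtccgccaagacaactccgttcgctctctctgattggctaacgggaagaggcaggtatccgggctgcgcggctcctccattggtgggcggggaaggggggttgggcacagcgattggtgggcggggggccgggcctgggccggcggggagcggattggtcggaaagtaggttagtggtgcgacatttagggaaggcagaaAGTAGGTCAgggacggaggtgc

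The knockout-labelled library gave 11104 cells after filtering, with a median of 5848 UMIs a cell (unique molecular identifiers, each standing for 1 captured transcript), and the wild-type-labelled library gave 12002 cells with a median of 5344.5. The matrices held 103478998 UMIs in the knockout-labelled library and 105556354 UMIs in the wild-type-labelled library. The targeted gene, Slc22a18 (chr7:143473736-143499334), had 2051 UMIs (21.4 CPM) in the knockout-labelled library and 2353 UMIs (24.4 CPM) in the wild-type-labelled library, where CPM is a gene's count scaled to a total of 1000000 UMIs for the class and library. Its ratio was 0.916 (0.853 to 0.984) in hepatocytes, which held most of its UMIs. In Kupffer cells it had 66 UMIs (5.32 CPM) in the knockout-labelled library and 129 UMIs (11.7 CPM) in the wild-type-labelled library, a ratio of 0.455 (0.333 to 0.617) that passed the size rule given below as lower. In endothelial cells it had 33 UMIs (1.37 CPM) in the knockout-labelled library and 94 UMIs (3.55 CPM) in the wild-type-labelled library, a ratio of 0.387 (0.252 to 0.582) in too few cells for the rule. A 3' tag that lies outside the deleted part checks nothing, and since the transcript was present in the knockout-labelled library, the libraries are named by their labels throughout. Cell classes were compared where both libraries held 100 cells or more, which left 7: hepatocytes (3172 and 3216 cells), endothelial cells (2595 and 2753), Kupffer cells (1227 and 1069), stellate-like cells (289 and 369), B cells (726 and 992), T cells (423 and 501) and NK/ILC1 cells (143 and 213). The clusters behind the classes were made without the clock genes. As a check of the tissue label, the 10 hepatocyte markers summed to 23396 and 28026 CPM in the hepatocytes of the 2 libraries in that order, with none at 0. Clusters that passed no naming rule held 19.0% of knockout-labelled and 20.1% of wild-type-labelled cells, and 38 barcodes occurred in both libraries.

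The comparison asked whether the 10 genes stood at another phase of the cycle in the knockout-labelled library, class by class. In the 7 compared classes, no clock gene with at least 50 UMIs in a class reached a 2-fold ratio between the libraries there. Below that minimum, the NK/ILC1 ratios of Per2 (5 and 17 UMIs), Per3 (4 and 12), Nr1d1 (2 and 8) and Ciart (1 and 6) were between 0.232 and 0.463, each with an interval that includes 1. In hepatocytes, the class with the most UMIs, genes of the same phase lay on both sides of 1. The size rule asked for at least 50 summed UMIs, a ratio of at least 2 or at most 0.5 (knockout-labelled over wild-type-labelled), a 95% interval excluding 1, and detection in 5% or more of the cells on the higher side. Of the 70 pairs of a clock gene and a class, 54 had at least 50 UMIs, and 0 of the 54 passed; their ratios ran between 0.554 (Tef in T cells) and 1.55 (Cry2 in Kupffer cells). The ratio was above 1 in 24 pairs and below 1 in 30. The interval lay wholly above 1 in 9 pairs, wholly below 1 in 7 and inside 1.5-fold either way in 37. Over all kept cells the 10 ratios ran between 0.881 and 1.12, where 0.148% of all genes with 50 UMIs passed as higher, 0.058% as lower, and 78.1% had an interval inside 1.5-fold, as had all 10 clock genes. A ratio of 1.5 or more was reached by 0 of 10 (background 0.464%) and the inverse by 0 (background 0.206%), and 6 intervals excluded 1 (background 45.2%).

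**Figure D1:**
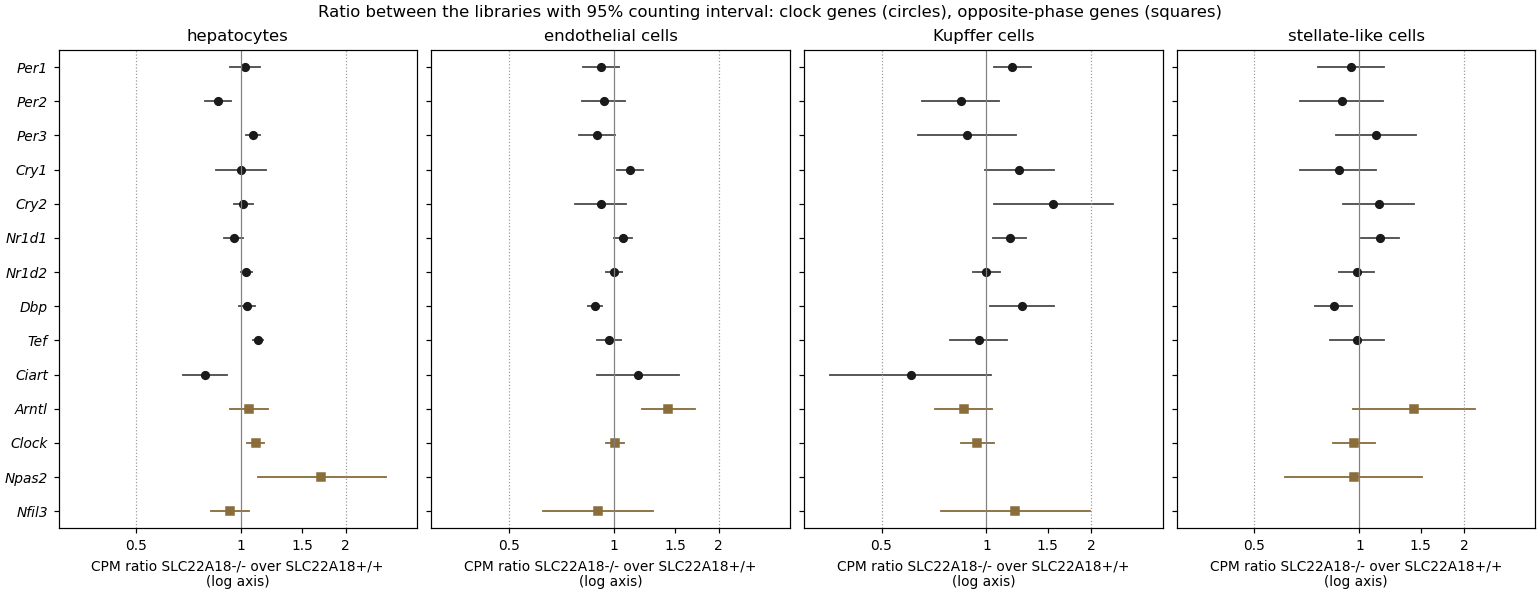
CPM ratio of the knockout-labelled over the wild-type-labelled library (log axis) with its 95% counting interval in the 4 largest named classes by UMIs. Circles are the clock genes, and squares the opposite-phase list of Arntl, Npas2, Nfil3 and the near-constant Clock. Genes under 50 UMIs in a class are left out. The hepatocyte clock genes lie between 0.789 and 1.12, and Arntl in endothelial cells stands at 1.43.

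In hepatocytes the period genes, whose proteins are the inhibitors that set the length of the cycle, had ratios within 1.5-fold. Per1 had 813 UMIs (28.6 CPM) in the knockout-labelled library and 775 UMIs (27.9 CPM) in the wild-type-labelled library, a ratio of 1.03 (0.929 to 1.13). Per2 had 1016 UMIs (35.7 CPM) in the knockout-labelled library against 1157 UMIs (41.6 CPM) in the wild-type-labelled library, with a ratio of 0.859 (0.789 to 0.936). Per3 had 3948 UMIs (139 CPM) in the knockout-labelled library and 3568 UMIs (128 CPM) in the wild-type-labelled library, a ratio of 1.08 (1.03 to 1.13). Per2 and Per3 thus departed from 1 beyond counting error in opposite directions, each by under 1.5-fold. The cryptochromes, which bind and block CLOCK and BMAL1, had intervals that include 1. Cry1 had 295 UMIs (10.4 CPM) in the knockout-labelled library and 289 UMIs (10.4 CPM) in the wild-type-labelled library, a ratio of 0.999 (0.847 to 1.18), and for Cry2 the values were 1982 UMIs (69.7 CPM) and 1908 UMIs (68.6 CPM), a ratio of 1.02 (0.954 to 1.08).

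The hepatocyte transcripts of the day phase also split. Nr1d1, which encodes the haem-binding repressor REV-ERB alpha, had 1860 UMIs (65.4 CPM) in the knockout-labelled library and 1910 UMIs (68.6 CPM) in the wild-type-labelled library, a ratio of 0.953 (0.894 to 1.02). Its paralogue Nr1d2 had 5912 UMIs (208 CPM) in the knockout-labelled library and 5580 UMIs (201 CPM) in the wild-type-labelled library, with a ratio of 1.04 (1.0 to 1.08). Dbp, an activator acting through D-boxes, had 2857 UMIs (101 CPM) and 2688 UMIs (96.6 CPM) in the same order of libraries, a ratio of 1.04 (0.987 to 1.10). Dbp and Nr1d1, whose transcripts swing widely over the day in mouse liver, had intervals that include 1. Tef, a relative of Dbp, had 8618 UMIs (303 CPM) in the knockout-labelled library and 7523 UMIs (270.4 CPM) in the wild-type-labelled library, and its ratio of 1.12 (1.09 to 1.16) was the highest of the 10. Ciart, which encodes a repressor of CLOCK and BMAL1, had 332 UMIs (11.7 CPM) in the knockout-labelled library and 412 UMIs (14.8 CPM) in the wild-type-labelled library, and its ratio of 0.789 (0.680 to 0.914) was the lowest. The day group of 6 thus held 4 ratios above 1 and 2 below, with Tef and Per3 wholly above 1 and Ciart wholly below. With median of ratios scaling, which shifts hepatocyte log2 ratios by -0.06, the log2 ratios of Nr1d2 and Dbp were -0.01 and -0.01, which leaves 2 above and 4 below. With the same cluster weights in both libraries the log2 ratio of Per3 was -0.02, that of Nr1d2 -0.06 and that of Tef 0.06. All 10 intervals in hepatocytes lay inside 1.5-fold, against 72.1% of the 14852 genes with at least 50 UMIs there; 0 of 10 passed the rule at 2-fold, where 0.296% of genes passed as higher and 0.121% as lower. With 1.5-fold as the limit, those passing as higher numbered 0 of 10 (background 1.16%) and as lower 0 (background 0.741%), and 4 intervals excluded 1 (background 44.2%). The median log2 ratio was 0.03 over the 10 clock genes and 0.07 over all genes with at least 20 UMIs.

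Of the 4 genes listed as opposite phase, 3 had ratios above 1 in hepatocytes and 1 below. Arntl and Npas2, named above as antiphase, were both above 1, and of these only Npas2 had an interval that excludes it. Arntl, the gene for BMAL1, had 537 UMIs (18.9 CPM) in the knockout-labelled library and 498 UMIs (17.9 CPM) in the wild-type-labelled library, a ratio of 1.06 (0.933 to 1.19). Clock, its near-constant partner, had 2710 UMIs (95.3 CPM) in the knockout-labelled library and 2401 UMIs (86.3 CPM) in the wild-type-labelled library, a ratio of 1.10 (1.05 to 1.17). Nfil3, whose protein represses through the D-boxes that Dbp and Tef activate, had a ratio of 0.930 (0.819 to 1.06). Npas2, a counterpart of Clock with a strong rhythm in liver, stood apart with 66 UMIs (2.32 CPM) in the knockout-labelled library and 38 UMIs (1.37 CPM) in the wild-type-labelled library, a ratio of 1.70 (1.12 to 2.60) that rested on few UMIs and did not reach 2. Dividing each clock gene by Arntl within the same cells, which needs no scaling between libraries, gave quotient ratios of 0.747 (Ciart) to 1.06 (Tef), with 2 of 10 intervals excluding 1 (Per2 and Ciart). Dividing by Npas2 gave 0.464 to 0.660 with 10 of 10 excluding 1, but these 10 quotients share the 66 and 38 UMIs of Npas2 and are 1 observation repeated. These quotient intervals are normal approximations on the log scale.

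In endothelial cells the widest departure among the clock and opposite-phase genes with at least 50 UMIs was in Arntl, not in the 10 clock genes. Arntl had 304 UMIs (12.7 CPM) in the knockout-labelled library and 234 UMIs (8.83 CPM) in the wild-type-labelled library, a ratio of 1.43 (1.2 to 1.71), which missed the 2-fold rule. Dbp had 3004 UMIs (125 CPM) in the knockout-labelled library and 3745 UMIs (141 CPM) in the wild-type-labelled library, a ratio of 0.885 (0.843 to 0.929). Cry1 had 1038 UMIs (43.2 CPM) in the knockout-labelled library and 1028 UMIs (38.8 CPM) in the wild-type-labelled library, a ratio of 1.11 (1.02 to 1.22). Nr1d1, an antiphase partner of Arntl, had a ratio of 1.06 (1.0 to 1.13), from 2242 UMIs in the knockout-labelled library and 2324 in the wild-type-labelled library, and Nr1d2 stood at 1.0 (0.951 to 1.05). Thra, which overlaps Nr1d1 on the other strand, had a ratio of 0.915 (0.854 to 0.980) there. Per1, Per2, Per3, Cry2 and Tef had ratios between 0.894 (Per3) and 0.972 (Tef), with intervals that include 1, and Ciart had 1.17 on 117 and 110 UMIs. Of the 10, 9 intervals were inside 1.5-fold (background 77.5%), and 0 passed at 2-fold (background 0.0718% higher, 0.0359% lower). A ratio of 1.5 or more was reached by 0 of 10 (background 0.223%) and the inverse by 0 (background 0.18%), and 3 intervals excluded 1 (background 22.7%). The dusk genes Per1, Per2 and Cry2 all had ratios below 1 there (Per2 at a log2 ratio of 0.01 with each cell weighted equally), while the day group held 3 above and 3 below. Divided by Arntl, all 10 quotient ratios were below 1 (0.617 to 0.819) and 9 intervals excluded 1, with the 1 gene Arntl common to them all. Stellate-like cells had 10 of 10 quotients by Arntl below 1 (0.588 to 0.875), with 3 intervals excluding 1. Kupffer cells had 8 of 10 above 1 (0.709 to 1.81), with 5 intervals excluding 1, all above it. Of the quotients by Arntl in lymphocytes, 5 of 6 were below 1 in B cells, 3 of 6 in T cells and 0 of 3 in NK/ILC1 cells, and 1 interval, in T cells, excluded 1. Npas2 had a log2 ratio of 0.63 in endothelial cells, on 17 and 12 UMIs, under the minimum of 50.

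Kupffer cells, the resident macrophages, held the highest ratio of the 54 pairs. Cry2 had 75 UMIs (6.04 CPM) in the knockout-labelled library and 43 UMIs (3.89 CPM) in the wild-type-labelled library, a ratio of 1.55 (1.05 to 2.31). These levels were 8.67% and 5.68% of those in hepatocytes. The median over the 10 hepatocyte markers in Kupffer cells was 11.2% and 10.5%, in the same order of libraries. The part of hepatocyte RNA in the Cry2 counts was not tested. Dbp had 223 UMIs in the knockout-labelled library and 157 in the wild-type-labelled library, a ratio of 1.26 (1.03 to 1.56). For Per1 the UMIs were 623 in the knockout-labelled library and 468 in the wild-type-labelled library (ratio 1.18 (1.05 to 1.34)), and for Nr1d1 they were 760 and 580 (ratio 1.17 (1.05 to 1.30)). These 4 genes belong to both the day and the dusk group, while Per2 (0.843 (0.655 to 1.08)), Per3 (0.879 (0.637 to 1.21)), Tef (0.95 (0.788 to 1.15)) and Nr1d2 (0.998 (0.912 to 1.09)) of the same groups had ratios below 1 with intervals that include it. Ciart had 26 and 38 UMIs and a ratio of 0.609 (0.355 to 1.03). Cry1, of the late night, had a ratio of 1.24 (0.988 to 1.56), and Arntl 0.859 (0.712 to 1.04). Intervals inside 1.5-fold numbered 4 of 10 (background 68.6%); 0 of 10 passed at 2-fold (background 0.132% higher, 0.149% lower). A ratio of 1.5 or more was reached by 1 of 10 (background 0.712%) and the inverse by 0 (background 1.04%), and 4 intervals excluded 1 (background 22.9%). The gene past 1.5-fold was Cry2.

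In stellate-like cells, the vitamin A storing and fibroblast-like cells, 9 clock genes had at least 50 UMIs and all 9 intervals lay inside 1.5-fold (background 61.4%; at 2-fold 0.476% of genes passed as higher and 0.342% as lower, against 0 of 9). Nr1d1 had 491 UMIs (99.1 CPM) in the knockout-labelled library and 538 UMIs (86.5 CPM) in the wild-type-labelled library, a ratio of 1.15 (1.01 to 1.30). Dbp, of the same phase, had 462 UMIs (93.3 CPM) in the knockout-labelled library and 687 UMIs (110.5 CPM) in the wild-type-labelled library, a ratio of 0.844 (0.749 to 0.951), on the other side of 1. With each library clustered alone the log2 ratio of Dbp in stellate-like cells was 0.10, against -0.24 as first given. Arntl had a ratio of 1.43 (0.960 to 2.15) on 56 and 49 UMIs. With 1.5-fold as the limit, those passing as higher numbered 0 of 9 (background 2.35%) and as lower 0 (background 1.8%), and 2 intervals excluded 1 (background 18.2%).

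Lymphocytes held fewer UMIs and wider intervals. In B cells 0 of 6 clock genes passed at 2-fold (background 0.0758% higher, 0.357% lower) and 2 of 6 intervals were inside 1.5-fold (background 48.4%). Per1 had 184 UMIs (77.2 CPM) in the knockout-labelled library and 329 UMIs (95.3 CPM) in the wild-type-labelled library, a ratio of 0.810 (0.673 to 0.973), whereas Cry1 had a ratio of 1.0 (0.796 to 1.26). With 1.5-fold as the limit, those passing as higher numbered 0 of 6 (background 1.14%) and as lower 0 (background 1.82%), and 1 interval excluded 1 (background 13.5%). In T cells 0 of 6 passed (background 1.9% higher, 0.44% lower) and 2 of 6 were inside 1.5-fold (background 47.5%). Tef had 32 UMIs (10.1 CPM) in T cells of the knockout-labelled library and 62 UMIs (18.3 CPM) in the wild-type-labelled library, a ratio of 0.554 (0.350 to 0.863), and Nr1d2 had 166 UMIs (52.5 CPM) and 237 UMIs (69.8 CPM), a ratio of 0.752 (0.613 to 0.921). The T-cell clusters differed in size between the libraries: one led by Gzma and Ms4a4b held 82 cells of the knockout-labelled library and 26 of the wild-type-labelled library. In the other 2 T-cell clusters Nr1d2 had ratios of 0.865 (0.618 to 1.2) and 0.978 (0.729 to 1.31), and Tef was under 50 UMIs in each. The 3 day genes that could be read in T cells, Nr1d2, Dbp and Tef, all had ratios below 1, with Dbp at 0.990 (0.651 to 1.5). A ratio of 1.5 or more was reached by 0 of 6 (background 4.94%) and the inverse by 1 (background 2.19%), and 2 intervals excluded 1 (background 20.8%). Tef was the gene past 1.5-fold. In NK/ILC1 cells Per1, Cry1 and Nr1d2 could be read, with ratios of 1.03 (0.738 to 1.43), 1.07 (0.656 to 1.72) and 0.879 (0.604 to 1.27); 0 of 3 passed (background 0.255% higher, 0.838% lower) and 1 of 3 was inside 1.5-fold (background 33.2%). With 1.5-fold as the limit, those passing as higher numbered 0 of 3 (background 1.53%) and as lower 0 (background 2.79%), and 0 intervals excluded 1 (background 11%).

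The levels of the same gene in different cell classes, described here without a test, spanned a wider range than the ratios between libraries. Per3, Tef, Nr1d2, Cry2, Per2 and Ciart had their highest level of the 7 classes in hepatocytes in both libraries. Hepatocytes also had the lowest median share of mitochondrial UMIs, 0.919% and 0.929%, against 2.62% to 4.45% in the other compared classes. The part of nuclear RNA content in these levels was not tested. In hepatocyte cluster 19, described below, Tef and Per3 were under their endothelial levels. Tef measured 303 CPM in hepatocytes of the knockout-labelled library and 270.4 CPM in those of the wild-type-labelled library, while the next class, endothelial cells, measured 47.9 and 49.3 CPM, and T cells, the lowest, 10.1 and 18.3 CPM. Per3 measured 139 and 128 CPM in hepatocytes and 3.79 and 3.53 CPM in T cells, in the same order of libraries. After thinning each cell to 1 depth per class, a Per3 UMI was found in 32.6% (30.8 to 34.4) of knockout-labelled and 30.3% (28.5 to 32.1) of wild-type-labelled hepatocytes, at 2824 UMIs a cell, and in 2.07% (0.837 to 4.22) and 0.748% (0.155 to 2.17) of T cells at 4408 UMIs a cell. Before thinning, Per3 was detected in 49.7% of knockout-labelled and 45.6% of wild-type-labelled hepatocytes, and in 2.84% and 2.0% of T cells in that order. Thinning left out 533 and 745 shallower hepatocytes and 85 and 100 T cells. T cells are shown because they had the lowest Per3 level of the 7 classes. Over the 10 hepatocyte markers, the median level in other classes was between 8.22% and 24.1% of that in hepatocytes, and the T-cell levels of Per3 (2.73% in the knockout-labelled library, 2.75% in the wild-type-labelled library) and Tef (3.34% and 6.75%) were below that range. The part of free RNA in these low levels was not tested.

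Cry1 and Per1 were instead highest in lymphocytes. Cry1 measured 55.4 CPM in B cells of the knockout-labelled library and 55.3 CPM in those of the wild-type-labelled library, 50.3 and 48.0 CPM in T cells, 43.2 and 38.8 CPM in endothelial cells, and 10.4 and 10.4 CPM in hepatocytes, the lowest class. The order of all 7 classes was the same in both libraries for Cry1, as it was for Nr1d2 and Tef. B, T and NK/ILC1 cells held the 3 highest levels of Per1 in both libraries: 77.2 and 95.3 CPM in B cells, 75.6 and 85.1 CPM in T cells, and 81.2 and 78.8 CPM in NK/ILC1 cells, with no neighbour among them apart beyond counting error. Endothelial cells were lowest for Per1, at 21.3 CPM in the knockout-labelled library and 23.1 CPM in the wild-type-labelled library. Arntl, the activator, was also highest in B cells (70.9 and 68.0 CPM) and T cells (64.8 and 69.5 CPM) and measured 18.9 and 17.9 CPM in hepatocytes.

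Nr1d1 and Dbp were each highest outside hepatocytes and low in lymphocytes. In Kupffer cells Nr1d1 measured 61.2 CPM in the knockout-labelled library and 52.5 CPM in the wild-type-labelled library, 93.6% and 76.5% of its hepatocyte level. It was under that level beyond counting error in the wild-type-labelled library only. Dbp stood far under its own hepatocyte level there, with 18.0 and 14.2 CPM. Nr1d1 measured 99.1 and 86.5 CPM in stellate-like cells of the knockout-labelled and wild-type-labelled libraries, 93.4 and 87.7 CPM in endothelial cells, 65.4 and 68.6 CPM in hepatocytes, and 6.32 and 5.30 CPM in T cells. Dbp was highest in endothelial cells, at 125 CPM in the knockout-labelled library and 141 CPM in the wild-type-labelled library, and measured 15.5 and 15.3 CPM in B cells. Nr1d2 differed from Nr1d1 in lymphocytes: T cells held 52.5 and 69.8 CPM of Nr1d2, 25.2% and 34.8% of the hepatocyte level, and for Nr1d1 the shares were 9.66% and 7.72%. Per1 in the small neutrophil class reached 109 CPM (29 UMIs in 67 cells) in the knockout-labelled library and 182 CPM (51 UMIs in 99 cells) in the wild-type-labelled library. Cholangiocyte-like cells, of 63 and 49 cells, held 86.6 and 73.7 CPM of Per2 and 112 and 123 CPM of Nr1d1. In the 81 and 108 plasmacytoid dendritic cells Tef had 43 and 17 UMIs, a ratio of 3.05 (1.70 to 5.70), in a class outside the comparison for its size.

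**Figure D2:**
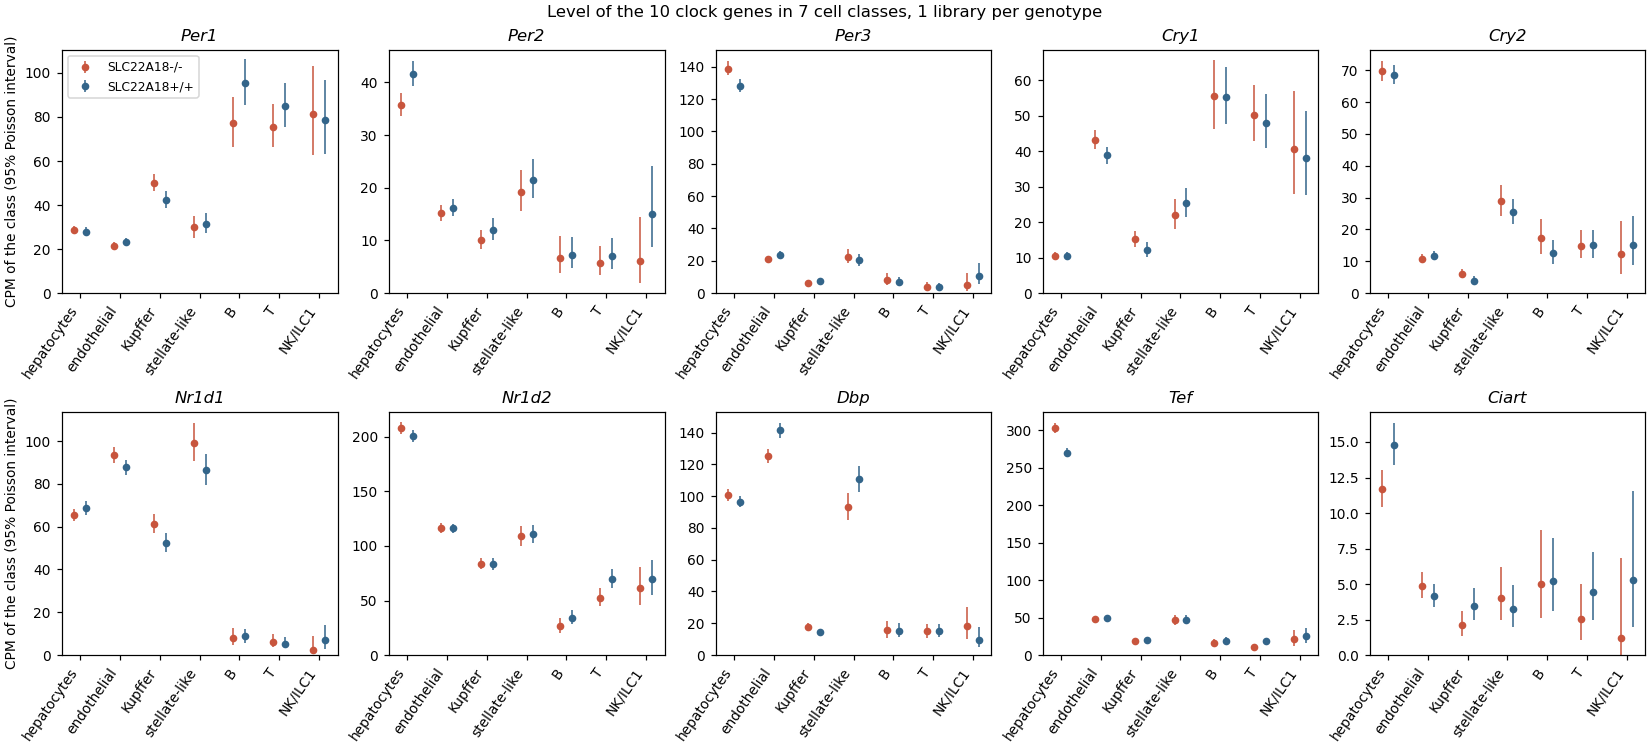
CPM of each of the 10 clock genes in the 7 cell classes, with 95% Poisson intervals, for the knockout-labelled library (left point of each pair, SLC22A18-/-) and the wild-type-labelled library (right point, SLC22A18+/+); each panel has its own axis. Tef and Per3 stand highest in hepatocytes, at 303 and 270.4 CPM and 139 and 128 CPM, and Cry1 lowest there, at 10.4 and 10.4 CPM.

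Within hepatocytes the clusters, whose numbers are only names, differed in zonal genes and in a second feature. Cluster 7 had the most Cyp2f2, a periportal enzyme gene (572 CPM in the knockout-labelled library, 492 CPM in the wild-type-labelled library), and cluster 9 the most Cyp2e1, a pericentral one, among the large clusters (1562 and 1324 CPM), with cluster 8 between them. Per1 measured 45.8 and 39.2 CPM in cluster 7, 27.8 and 28.7 CPM in cluster 9, in the same order of libraries. Per2 measured 54.3 and 65.1 CPM in cluster 7, 36.2 and 41.4 CPM in cluster 9. Ciart measured 21.2 and 30.1 CPM in cluster 7, 11.1 and 10.2 CPM in cluster 9. Cry1 measured 15.7 and 14.2 CPM in cluster 7, 8.19 and 8.12 CPM in cluster 9, so that these 4 genes were higher on the Cyp2f2 side in both libraries. The 9-over-7 ratio of Per1 was 0.607 (0.503 to 0.732) in the knockout-labelled library and 0.731 (0.593 to 0.899) in the wild-type-labelled library, that of Per2 0.667 (0.564 to 0.790) in the knockout-labelled library and 0.637 (0.538 to 0.752) in the wild-type-labelled library, that of Cry1 0.522 (0.371 to 0.733) in the knockout-labelled library and 0.571 (0.389 to 0.830) in the wild-type-labelled library and that of Ciart 0.522 (0.390 to 0.698) in the knockout-labelled library and 0.339 (0.247 to 0.458) in the wild-type-labelled library. The ratio was nearer to 1 but also below it for Tef, at 0.843 (0.795 to 0.893) and 0.874 (0.821 to 0.931) in the same order of libraries, for Cry2, at 0.870 (0.767 to 0.989) and 0.862 (0.757 to 0.980), and for Per3, at 0.910 (0.833 to 0.995) and 0.900 (0.822 to 0.987). For Dbp it was 0.900 (0.809 to 1.0) in the knockout-labelled library, with an interval that includes 1, and 0.806 (0.718 to 0.906) in the wild-type-labelled library. In all, 8 of the 10 genes were lower in cluster 9 than in cluster 7 in both libraries, 7 of them beyond counting error in both. Nr1d2 was not among them, with 237 and 241 CPM in cluster 7, 237 and 261 CPM in cluster 9. Nor was Nr1d1, with 63.8 and 72.6 CPM in cluster 7, 72.4 and 75.5 CPM in cluster 9. The share of all genes lower in cluster 9 was not worked out, so the count of clock genes has no background. The hepatocyte marker Alb was also lower there, with 9-over-7 ratios of 0.741 and 0.795, while Clock stood at 1.07 and 1.12. Malat1, a transcript held in the nucleus, had 9-over-7 ratios of 0.818 and 0.825. The part of nuclear RNA content in the 9-over-7 ratios of the clock genes was not tested. Between the libraries Per2 had a ratio below 1 in each of the 4 hepatocyte clusters where it had 50 UMIs (0.562 to 0.873), and Ciart in 2 of 3.

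Cluster 19, of 598 cells in the knockout-labelled library and 784 in the wild-type-labelled library, divided the clock genes in another way. Its leading genes were Sult2a2, Fabp1 and Ttc36, and its Alb level was 10415 and 13549 CPM, above the 7755 and 7725 CPM of cluster 7. Tef measured 27.4 and 29.2 CPM in cluster 19, against 405 and 378 CPM in cluster 7. Per3 measured 8.57 and 8.17 CPM in cluster 19, against 169.6 and 175 CPM in cluster 7, and Nr1d2 38 and 37.0 CPM in cluster 19, against 237 and 241 CPM in cluster 7. Cry2, Per1, Per2 and Ciart were low in cluster 19 too, with Cry2 at 15.1 and 10.8 CPM and Per1 at 3.72 and 7.74 CPM. Dbp measured 101 and 103 CPM in cluster 19, against 116 and 116 CPM in cluster 7, and Nr1d1 55.7 and 49.5 CPM in cluster 19, against 63.8 and 72.6 CPM in cluster 7. Malat1, a transcript held in the nucleus and looked at after the values above were seen, measured 1258 and 1358 CPM in cluster 19, against 44809 and 48833 CPM in cluster 7 and 8089 and 9578 CPM in T cells; mitochondrial UMIs were a median of 0.969% and 0.903% in cluster 19 and 0.984% and 0.994% in cluster 7. The part of nuclear RNA content in the class and cluster levels was not tested. The hepatocyte levels of Tef and Per3 above came mainly from the clusters rich in Malat1, and those of cluster 19 were below those of endothelial cells.

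**Figure D3:**
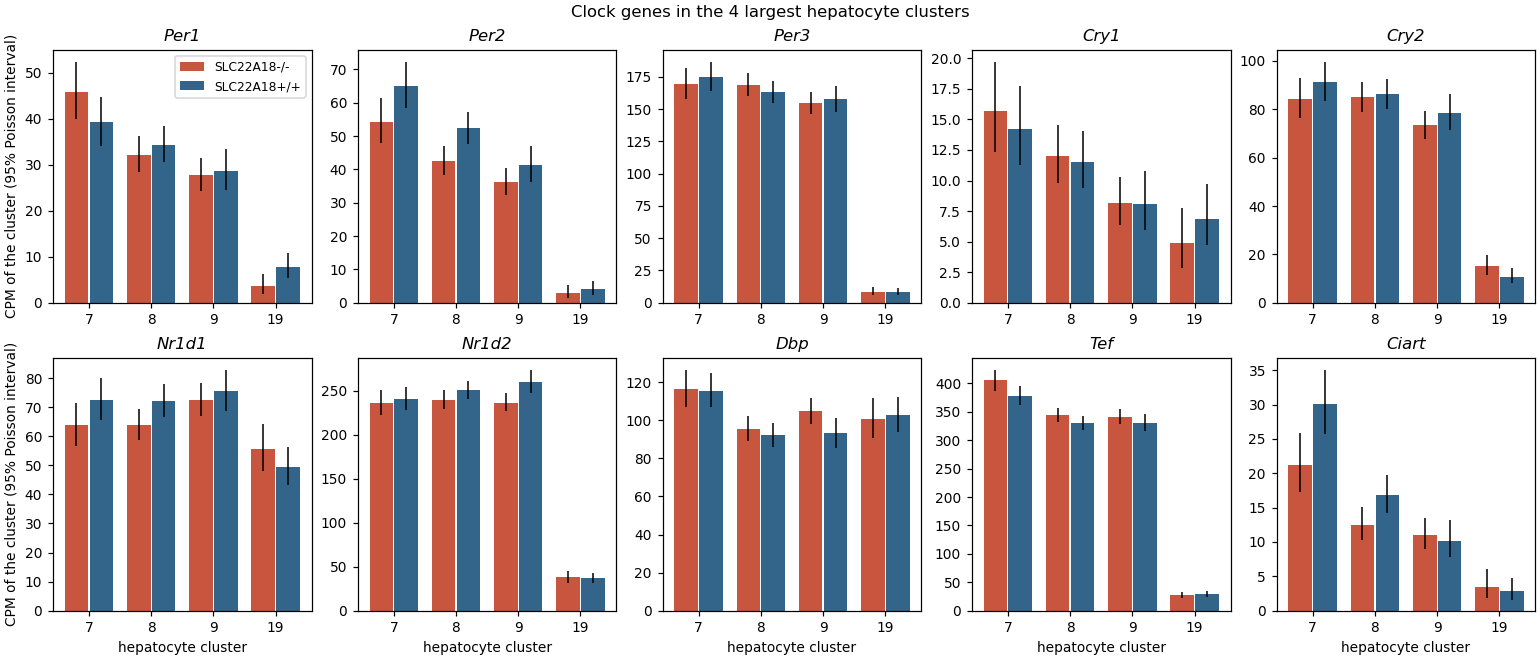
CPM of the 10 clock genes in the 4 largest hepatocyte clusters, with 95% Poisson intervals, knockout-labelled library (left bar) and wild-type-labelled library (right bar). In cluster 19 Tef stands at 27.4 and 29.2 CPM and Per3 at 8.57 and 8.17 CPM, while Dbp stands at 101 and 103 CPM.

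Over the 18 clusters with at least 50 cells in each library, 129 pairs of a clock gene and a cluster had 50 UMIs, of which 1 passed the 2-fold rule as lower (background 0.555% of all such pairs lower, 0.553% higher). It was Per1 in the endothelial cluster led by Mecom, Ednrb and Nrg1: 31 UMIs (25.1 CPM) in the knockout-labelled library and 77 UMIs (53.6 CPM) in the wild-type-labelled library, a ratio of 0.468 (0.298 to 0.719). No pair passed as higher, and the ratios ran up to 1.62.

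Genes around the clock core were read from further lists in hepatocytes, each described by its count past the 2-fold rule and its median log2 ratio, beside 0.07 for all genes with 20 UMIs. Of 17 other clock genes with 50 UMIs 0 passed, with a median of 0.01; the 2 with the most UMIs were Rora, an activator of Arntl (793 and 704 CPM, ratio 1.13 (1.11 to 1.15)), and Gsk3b, a kinase (ratio 1.08 (1.04 to 1.12)). Bhlhe40, a repressor at E-boxes picked out after its values were seen, had 116 CPM in the knockout-labelled library and 186 CPM in the wild-type-labelled library, a ratio of 0.625 (0.598 to 0.653). Of 15 rhythmic output genes 1 was higher and 0 lower, with a median of -0.12: Alas1, the first enzyme of haem synthesis, had 11023 UMIs (388 CPM) in the knockout-labelled library and 4799 UMIs (172 CPM) in the wild-type-labelled library, a ratio of 2.25 (2.17 to 2.33). The D-box factors Dbp, Tef and Hlf, which act on such output genes, had ratios of 1.04, 1.12 and 0.979.

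Lists of genes that answer to feeding, glucocorticoids, temperature and tissue handling, all of which also reach Per1 and Per2, were read beside them. Of 8 feeding and fasting genes 0 were higher and 2 lower in hepatocytes, with a median log2 ratio of -0.62. G6pc, the last enzyme of glucose release, had 229 CPM in the knockout-labelled library and 928 CPM in the wild-type-labelled library, a ratio of 0.247 (0.241 to 0.254), and Igfbp1, a fasting-induced secreted protein, 25.5 and 82.6 CPM, a ratio of 0.308 (0.283 to 0.336). Of 9 glucocorticoid targets 1 was higher (Mt2, a metallothionein, ratio 2.74 (2.45 to 3.07)) and 1 lower (Tat, a tyrosine catabolic enzyme, ratio 0.454 (0.446 to 0.463)), with a median of -0.17. Of 14 immediate early genes 0 passed, with a median of -0.34; Zfp36 and Dusp1, with the most UMIs, had ratios of 0.610 (0.586 to 0.636) and 0.616 (0.587 to 0.646), beside 1.03 (0.929 to 1.13) for Per1. Of 10 heat and cold genes 0 passed, with a median of -0.43; Hspa8 had a ratio of 0.757 (0.731 to 0.783) and Rbm3 0.909 (0.860 to 0.961). In the other 6 classes 17 pairs of a list gene and a class passed, all as lower. Over all genes, the share passing as lower was between 0.0359% (endothelial cells) and 0.838% (NK/ILC1 cells). The share passing as higher was between 0.0718% (endothelial cells) and 1.9% (T cells). Some genes recur over classes, so the 17 pairs are not separate observations, and their share of the list pairs was not worked out. G6pc passed in 5 classes. In endothelial cells, where no other gene of these lists passed, it had a ratio of 0.376 (0.319 to 0.442) at 8.29 CPM in the knockout-labelled library and 22.0 CPM in the wild-type-labelled library. The 10 hepatocyte markers summed to 3807 CPM in endothelial cells of the knockout-labelled library and 3832 CPM in those of the wild-type-labelled library, with 0 of them at 0, and their part in the G6pc values was not tested. The G6pc ratio was 0.249 (0.191 to 0.321) in Kupffer cells, 0.192 (0.138 to 0.262) in stellate-like cells, 0.248 (0.144 to 0.406) in B cells and 0.212 (0.116 to 0.366) in T cells. Of the heat shock genes, Hsph1 passed in Kupffer cells (ratio 0.418 (0.379 to 0.461)), Hspa1a in B cells (0.491 (0.377 to 0.633)) and T cells (0.487 (0.38 to 0.621)), and Hspa1b in B cells (0.416 (0.314 to 0.544)), T cells (0.413 (0.332 to 0.510)) and NK/ILC1 cells (0.351 (0.221 to 0.539)). The other 6 pairs were Tat in T cells and NK/ILC1 cells, Pck1 in T cells, Zbtb16 in Kupffer cells, and Sgk1 and Nampt in NK/ILC1 cells. The Tat ratios were 0.420 in T cells and 0.411 in NK/ILC1 cells, beside 0.454 in hepatocytes. For Pck1 the ratio was 0.484 in T cells, beside 0.601 in hepatocytes. The part of hepatocyte RNA in the G6pc, Tat and Pck1 counts of these classes was not tested. These genes of the other classes lay outside the rule for named genes and were chosen after their values were seen.

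**Figure D4:**
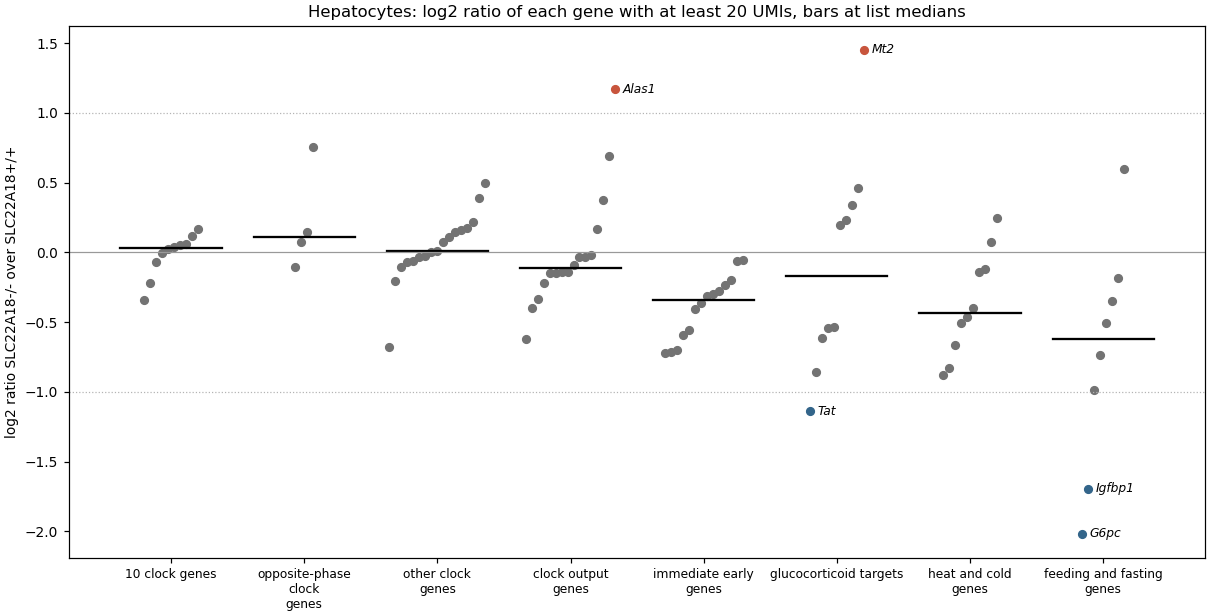
Log2 ratio (knockout-labelled over wild-type-labelled) in hepatocytes of each gene with at least 20 UMIs in 8 lists, with list medians as bars and dotted lines at 2-fold; coloured and named points passed the size rule. The 10 clock genes lie between -0.34 and 0.17, the 8 feeding and fasting genes between -2.02 and 0.60.

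The genes outside all lists whose log2 ratios over the 7 classes came nearest to the median of the clock genes were Mat2b, Rock1, Max, Atxn7 and Anxa7, among 4951 genes with 50 UMIs in every class, at root mean square differences of 0.0311 to 0.0511. That median included clock genes under 50 UMIs in a class. In NK/ILC1 cells it was -0.25, against 0.05 over the 3 clock genes with at least 50 UMIs there, so the likeness rests partly on few UMIs. In GENCODE vM21 annotation of GRCm38, Per3 (chr4:151003652-151044665, minus strand) overlaps Camta1 on the same strand, Nr1d1 (chr11:98767932-98775333, minus strand) overlaps Thra on the other, and Dbp, Tef, Cry2 and Ciart each overlap a gene on the other strand. Whether counting used strand is not given in the sources used here, so reads of these pairs may not be separated.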

How the data were processed

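The sources were 2 filtered matrices of UMI counts, 1 per genotype, deposited by the authors. Per the file headers they came from Cell Ranger 8.0.1, and per the submitters' processing notes from Cell Ranger with STAR on mm10. The deposited barcodes numbered 11741 with 103478998 UMIs (SLC22A18-/-) and 12796 with 105556354 UMIs (SLC22A18+/+). Barcodes with at least 500 UMIs, 300 genes and at most 20% mitochondrial UMIs were kept, and 354 and 429 doublet calls at 1 shared Scrublet threshold of 0.276 were removed. Cells were clustered in scanpy 1.11.5 (2000 variable genes, 30 components, 15 neighbours, Leiden resolution 1), giving 35 clusters that were named by marker genes. The clock genes, the opposite phase, other clock and rhythmic output lists, and Slc22a18 were left out of the clustering. Whether the clusters depend on the feeding, glucocorticoid, heat and cold and immediate early lists was not tested. The cluster names were rebuilt here and may differ from the authors' own.

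Counts were summed per library and class and divided by the summed UMIs to give CPM. Ratios have 95% Clopper-Pearson intervals, CPM Poisson intervals and shares of cells exact binomial intervals (scipy 1.17.1). With 1 library per genotype no test was possible, so calls rest on the size rule alone, and all intervals cover counting error only. The gene naming rule took, from each list, the genes past 2-fold, or the 2 with the most UMIs where none passed. The 10 genes and the lists were chosen with earlier results of these data known. Of the 33696 gene IDs, 31961 were in GENCODE vM21. The count steps were tested on simulated data. Levels were not compared between genes, since 3' UMI counts carry no length scale.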

Additional observations from a re-analysis of the deposited data

Results flagged for a closer look

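The 3 clock genes Per1, Dbp and Tef had intervals wholly on opposite sides of 1 in different cell classes. The share of all genes with such intervals was not worked out, so this count has no background and is not read as a trait of the clock genes. Per1 had a ratio (knockout-labelled over wild-type-labelled) of 1.18 in Kupffer cells and 0.810 in B cells. Dbp had a ratio of 1.26 in Kupffer cells, 0.885 in endothelial cells and 0.844 in stellate-like cells. With each library clustered alone, the Dbp ratio in stellate-like cells was above 1. Tef had a ratio of 1.12 in hepatocytes and 0.554 in T cells, where it rested on 32 and 62 UMIs. Within 6 hepatocyte clusters the Tef ratio ran between 0.833 and 1.07, with 3 above 1, so no cluster reached the ratio of the class. With 1 library per genotype, none of these differences between classes was tested.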

How the results depend on the processing

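Of the 54 pairs 0 passed at 2-fold. At 1.5-fold 1 passed as higher in Kupffer cells (Cry2) and 1 as lower in T cells (Tef). With each library clustered alone, 2 passed as lower in stellate-like cells (Per3 and Tef), in a class of 202 cells in the knockout-labelled library and 665 in the wild-type-labelled library; a cluster of 364 cells with hepatocyte markers in second place was named in the wild-type-labelled library, and a like one of 399 cells stayed unnamed in the knockout-labelled library. Clock genes with an interval inside 1.5-fold numbered 4 of 10 in Kupffer cells and 7 with unnamed clusters joined to the class of their highest marker score. In stellate-like cells they numbered 9, and 5 with cells from 1500 UMIs, 5 at clustering resolution 2.0, 5 with the same cluster weights in both libraries and 3 with each library clustered alone. In B cells they numbered 2, and 1 with each cell weighted equally and 1 with the same cluster weights. In T cells they numbered 2, and 4 with doublet calls kept and 1 with each library clustered alone, and in NK/ILC1 cells 1, and 2 with doublet calls kept. Apart from the composition of the classes, which these settings change by construction, the cause was not tested. Over single genes, 631 of 654 log2 ratios stayed inside the interval first reported and 23 moved outside it. Median of ratios scaling shifted log2 ratios by up to -0.06 (hepatocytes). No paired analysis was possible because there was 1 library per genotype. Depth limits the lymphocyte classes most, where 15 of 30 pairs could be read.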
